A study of Mus musculus with 4 samples.

Results

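T cell receptor transcripts were read by probes for the segments and constant regions of the gamma, the alpha and delta, and the beta locus. The probes were all non-control probes whose position in the files (mouse build mm9) lay at chr13:19170000-19460000 (gamma), chr14:53000000-54900000 (alpha and delta) or chr6:40800000-41530000 (beta), and whose name or description gave a receptor segment or an Ensembl transcript of the series that numbers such segments. Of 55681 non-control probes, 185 lay in these regions and 115 met the rule, under 105 names. The gamma locus had 11 of them, the alpha and delta locus 78 and the beta locus 26. RefSeq's table for assembly GRCm38.p6, used for names and gene order only, named 100 of the 115. The loci were picked because their knockout minus wild-type differences had been seen, so those differences, and the limma values beside them, are descriptions and support nothing.

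T cells recognise antigen through a receptor of paired chains, an alpha with a beta chain on most T cells and a gamma with a delta chain on a smaller lineage. Each chain is assembled from variable, joining and, for beta and delta, diversity segments, which are cut and joined in the DNA of the developing cell and then spliced in the RNA to a constant region. The delta segments lie inside the alpha locus, and some variable segments there can serve either chain. A mature T cell can carry transcripts of a receptor locus whose protein it does not display, so a probe reads RNA of a segment and not a receptor.

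The RNA came from mouse CD4+ T cells cultured with antibodies to CD3e and CD28, TGFb and IL-6, conditions that direct Th17 differentiation, and sorted as CD4+ and positive for a red fluorescent reporter (RFP) of IL-17F. One group was wild type (miR-155+/+) and the other carried the miR-155 knockout (miR-155-/-), with 2 one-colour arrays each. No strain, age or sex is given in the labels used here, and the arrays of a genotype are described as biological replicates. Nothing ties an array to an animal or a culture, so p-values measure only the spread between these samples, which may be technical. The series asks how miR-155, a microRNA of activated lymphocytes, bears on the response to IL-23 and on effector genes of Th17 cells.

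Levels below are log2 processed signals minus the 75th percentile of the same array, so that 0 is that percentile. A level is compared across arrays for the same probe and never between probes, and every difference is knockout minus wild type on this log2 scale. On each array 63.5% to 69.8% of spots were well above background and none was saturated, and the precision is limited by the number of arrays. All 4 were scanned once on 1 slide, with wild type in its row 1 and the knockout in its row 2, and position on the slide cannot be told apart from genotype. The fitted spatial surface of knockout array 1 varied with an SD of 0.157, where the rest had 0.0498 to 0.0557. In 2 corner blocks on the right of the arrays some of its probes were very dim, which is stated where a named probe lies there. The targeted microRNA had no probe named for it or its host and was not analysed here. Il17f, the gene of the sorting reporter, had levels of 3.68 and 3.78 in wild type and 1.52 and 1.92 in the knockout.

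The probes that carry the findings are printed first, because each reads only 60 bases and related segments resemble one another. They are the probes designed on variable-segment transcripts of the gamma locus, the measured delta segments, the Trav15 segments that can serve a delta chain and Trav11d, the alpha segment with the largest upward difference, written 5′ to 3′ as the files give them. Capitals mark a run of at least 20 bases that 2 of the printed probes share. In the gamma locus (chromosome 13) the probes are in order of position.
Trgv7, chr13:19270114-19270173, plus strand: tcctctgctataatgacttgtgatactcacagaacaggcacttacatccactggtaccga
Trgv4, chr13:19277311-19277370, plus strand: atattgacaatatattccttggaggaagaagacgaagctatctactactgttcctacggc
Trgv6, chr13:19282709-19282768, plus strand: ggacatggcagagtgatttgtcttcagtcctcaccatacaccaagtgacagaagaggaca
Trgv5, chr13:19284529-19284588, plus strand: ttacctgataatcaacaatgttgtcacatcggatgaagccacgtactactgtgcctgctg
Trgv3, chr13:19334939-19334998, plus strand: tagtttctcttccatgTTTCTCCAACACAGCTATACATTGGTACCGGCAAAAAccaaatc
Trgv1, chr13:19432102-19432161, plus strand: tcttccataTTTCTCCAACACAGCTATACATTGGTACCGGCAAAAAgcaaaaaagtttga

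The Trgv3 and Trgv1 probes share 37 consecutive bases, so each may bind RNA of the other segment. In the alpha and delta locus (chromosome 14) the order is again that of position.
Trav15d-1-dv6d-1 probe 1, chr14:53483425-53483484, plus strand: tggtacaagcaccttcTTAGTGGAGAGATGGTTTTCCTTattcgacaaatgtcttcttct
Trav15d-1-dv6d-1 probe 2, chr14:53483537-53483596, plus strand: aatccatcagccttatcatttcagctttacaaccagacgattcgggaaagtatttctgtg
Trav15d-2-dv6d-2, chr14:53576868-53576927, plus strand: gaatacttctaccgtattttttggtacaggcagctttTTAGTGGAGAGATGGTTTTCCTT
Trav11d, chr14:54139419-54139478, plus strand: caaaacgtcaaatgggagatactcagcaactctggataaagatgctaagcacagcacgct
Trav15-2-dv6-2, chr14:54269402-54269461, plus strand: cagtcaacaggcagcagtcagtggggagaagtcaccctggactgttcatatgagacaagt
Trdv1, chr14:54501796-54501855, plus strand: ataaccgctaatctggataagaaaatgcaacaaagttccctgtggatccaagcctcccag
Trdv2-2, chr14:54581136-54581195, plus strand: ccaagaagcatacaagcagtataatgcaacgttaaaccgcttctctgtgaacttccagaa
Trdv5, chr14:54768392-54768451, minus strand: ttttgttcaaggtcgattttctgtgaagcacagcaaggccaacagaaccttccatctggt

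The 2 duplicated Trav15 segments share a run of 23 bases between their probes. Over all 115 probes, 35 share a run of at least 20 bases with another of them: 29 of 78 in the alpha and delta locus, 4 of 26 in the beta locus and 2 of 11 in the gamma locus. A further 3 share such a run with a probe outside the set. Values of the alpha variable segments are for this reason also given by family.

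Testing required a signal well above background on both wild-type or both knockout arrays, which 107 of the 115 probes had: 10 of 11 gamma, 72 of 78 alpha and delta and 25 of 26 beta. Of the other 8, Trgv5, Trdv4, Trbv26, Trav7n-5, Trav3-4 probe 2 and Trav18 probe 2 (in a corner block) were above background on no array, and Trav8d-2 and Trav18 probe 1 on 2 arrays. In limma's fit over all 37196 tested probes, 0 of them had a Benjamini-Hochberg adjusted p under 0.05 (percent called 0). A fit without wild-type replicate 1 did call probes, but it leaves 1 array in that genotype and says nothing about the 115. At an unadjusted limma p under 0.05, 3765 probes were called. A total of 2531 of them, 6.8% of those tested, were higher in the knockout and 1234, 3.32%, were lower. The median difference of all tested probes was 0.04.

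The gamma locus stood at a higher level on both knockout arrays than on both wild-type arrays. The median level of its 11 probes was -1.65 and -1.88 on the wild-type arrays and 0.17 and -0.05 on the knockout arrays. The alpha and delta locus had medians of -1.87 and -1.86 in wild type and -1.93 and -1.72 in the knockout, with the groups overlapping. The beta locus had medians of 1.89 and 2.0 in wild type and 2.08 and 2.06 in the knockout, which lie 0.06 apart at the closest. The median difference over tested probes was 1.81 for gamma, 0.03 for alpha and delta and 0.17 for beta. Over every probe of the rule, with no filter, it was 1.79, 0.05 and 0.17.

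**Figure D1:**
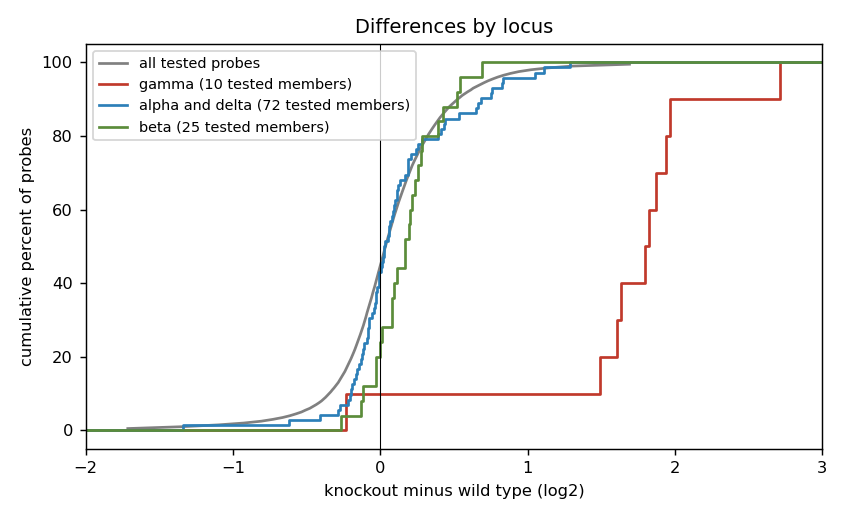
Cumulative percent of tested probes (vertical axis) against the knockout minus wild-type difference (horizontal axis, log2) for the 3 loci and for all 37196 tested probes (grey). The alpha and delta and the beta curves run near the grey curve, and 9 of the 10 gamma probes lie to the right of 1.

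Both knockout arrays lay above both wild-type arrays for 9 of 10 tested gamma probes, 25 of 72 alpha and delta probes and 11 of 25 beta probes, where 26.2% of all tested probes did so. Both lay below for 0 gamma, 8 alpha and delta and 1 beta probe, where 19.8% of all tested probes did. A difference of at least 1 upwards, met by 2.14% of all tested probes, was seen at 9 gamma, 3 alpha and delta and 0 beta probes. A difference of at least 1 downwards, met by 1.72% of all, was seen at 1 alpha and delta probe. At an unadjusted limma p under 0.05, 9 gamma, 11 alpha and delta and 4 beta probes were higher, and none of the 107 was lower. Some probes in the alpha and delta region that RefSeq names as receptor segments did not meet the rule. Among them a Trav3-3 probe was lower, by -0.39, at that p, and another differed by -0.14, each with both knockout arrays below. Trav9n-2 differed by -0.68 with overlapping groups, and a Trav14n-3 probe too dim to test by 0.44. The gamma count was 7 where all 4 arrays had to be well above background, since Trgv6 and Trgv2 passed the filter through the knockout arrays, where they are high. The alpha and delta count was 7 without wild-type replicate 2 or without knockout replicate 1, and the beta count was 1 without either wild-type array and 2 without either knockout array. The lowest adjusted p of any of the 107 was 0.39. Since the loci were picked on this contrast, these counts describe the choice and support nothing further.

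**Figure D2:**
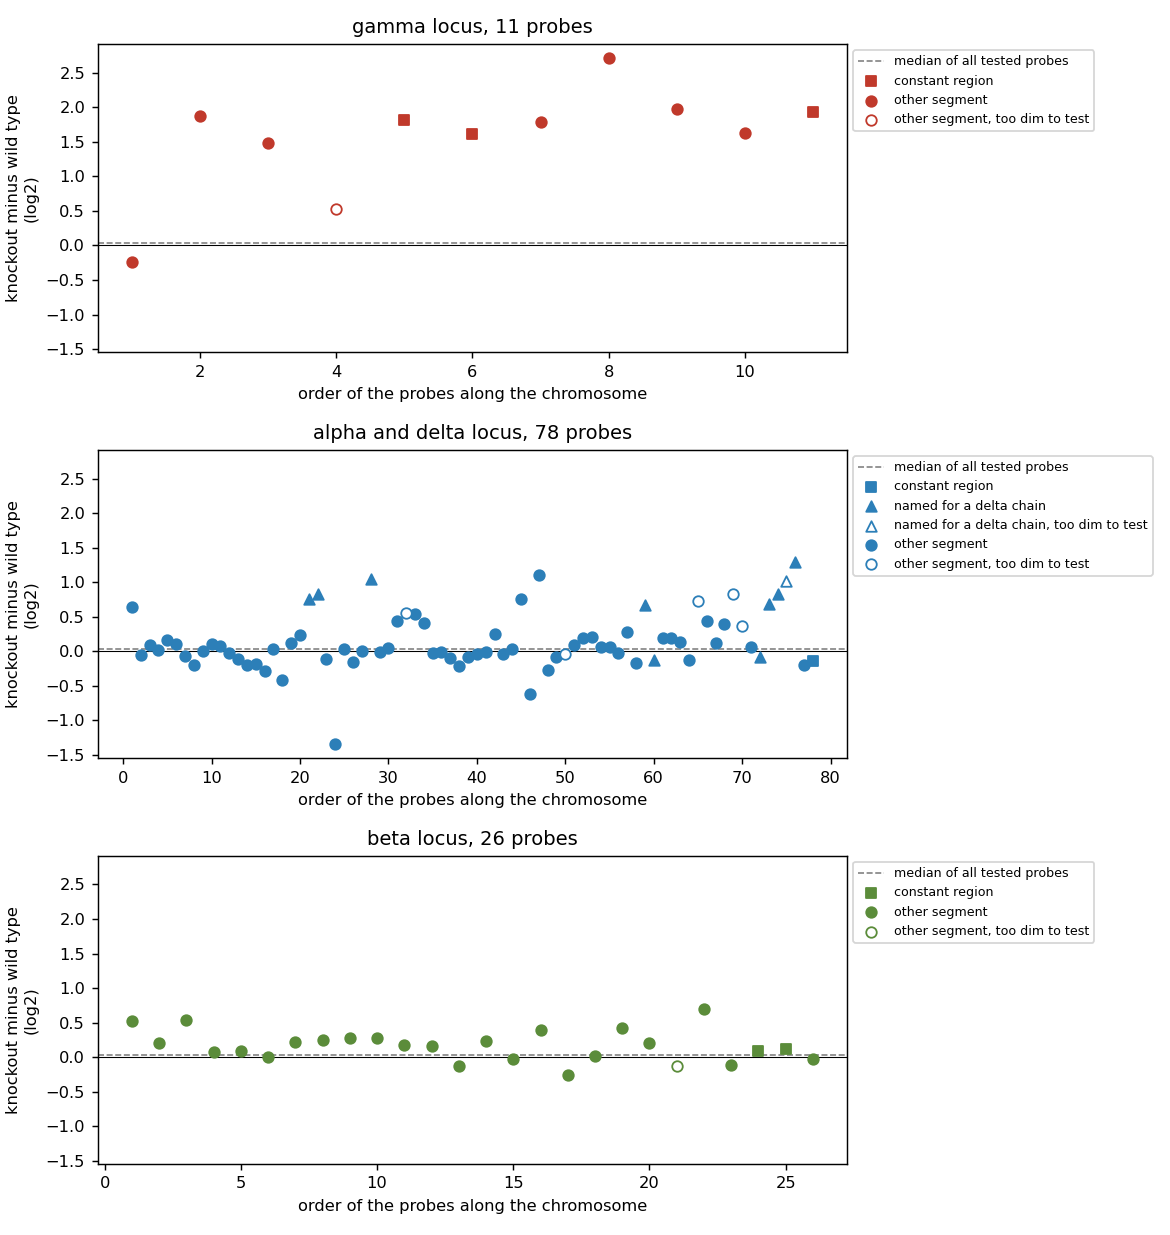
Knockout minus wild-type difference (vertical axis, log2) of each of the 115 probes in its order along the chromosome (horizontal axis, rank), with squares for constant regions, triangles for segments named for a delta chain, circles for other segments and open symbols for probes too dim to test. Gamma probes lie mostly between 1.49 and 2.71, and in the alpha and delta panel most triangles lie above the circles around them.

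The constant regions come first, since every productive transcript of a locus holds one whichever variable segment it uses. Trgc1, the constant region of the first gamma cluster, was read by a pair of probes. Its probe 1 had levels of 0.22 and -0.09 in wild type and 1.87 and 1.89 in the knockout, a difference of 1.82 (limma SE 0.16). Its probe 2, which lies in a corner block, had levels of 0.91 and 0.81 in wild type and 2.40 and 2.54 in the knockout, a difference of 1.61. A probe at the far end of the locus, named by a transcript ID and described in the files as a gamma constant region with no number (chr13:19444153-19444212), had levels of -0.76 and -0.73 in wild type and 1.23 and 1.15 in the knockout, a difference of 1.94. In all 3 the knockout arrays lay within 0.14 of each other, and the closest distance between the genotypes was 1.66, 1.49 and 1.89.

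The alpha and beta constant regions showed no such separation. Trac, which every alpha chain contains, had levels of 3.26 and 3.30 in wild type and 2.80 and 3.49 in the knockout. Its difference was -0.14 (SE 0.27), and the knockout arrays lay on either side of wild type. Without knockout replicate 1 the Trac difference was 0.20, so 1 array decides its sign. Trbc1 had levels of 7.54 and 7.71 in wild type and 7.74 and 7.67 in the knockout, a difference of 0.08 (SE 0.14). Trbc2 had levels of 7.37 and 7.59 in wild type and 7.65 and 7.55 in the knockout, a difference of 0.12 (SE 0.15). The groups overlapped for both beta constant regions, and neither difference has a settled sign: shifting arrays by their median instead lowers every probe by 0.16, which puts them at -0.08 and -0.04.

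Among the gamma variable segments, most had the same size of difference as the constant regions. Trgv4 had levels of -2.61 and -2.92 in wild type and -0.79 and -0.99 in the knockout, a difference of 1.87. Trgv1 had levels of -1.63 and -1.88 in wild type and 0.34 and 0.09 in the knockout, a difference of 1.97. Trgv3, whose probe shares bases with that of Trgv1, had levels of -1.65 and -1.82 in wild type and 0.17 and -0.05 in the knockout, a difference of 1.79. The knockout arrays were the higher in each case, by 1.62, 1.72 and 1.60 at the closest. A clone named Tcrg-V1 in the files, placed beside the last constant-region probe, had levels of -1.07 and -1.39 in wild type and 0.53 and 0.27 in the knockout, a difference of 1.63.

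The dimmer gamma segments varied more. Trgv2, the one gamma probe on the minus strand, had levels of -5.57 and -5.76 in wild type, where 1 of 2 arrays was well above background, and of -2.67 and -3.23 in the knockout. Its difference of 2.71 (SE 0.24) was the largest of the 107 tested probes, and it was 1.05 after normexp background correction. Trgv6 was not well above background on either wild-type array, at -6.61 and -5.63. It was above it on both knockout arrays, at -4.83 and -4.43. With wild-type values raised to each array's lowest signal above background where below it, Trgv6 was 2.72-fold brighter in the knockout. This fold is not a lower bound, since the value of wild-type replicate 1 was left as measured. The Trgv6 difference was 1.49 (SE 0.39) and was 0.51 after normexp background correction. Trgv5, which with Trgv6 is known from gamma-delta cells of skin and mucosa, was well above background on no array.

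Trgv7 did not separate the genotypes. This segment, known from gamma-delta cells of the gut lining, had levels of -4.81 and -5.07 in wild type, both well above background. Its knockout levels of -5.42 and -4.93 were not, and the groups overlapped. Its difference of -0.23 ranged from -0.48 to 0.24 over 12 alternative settings and was positive in 3, so it has no settled direction. It was the 1 named gamma probe of 10 whose sign was not kept throughout.

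**Figure D3:**
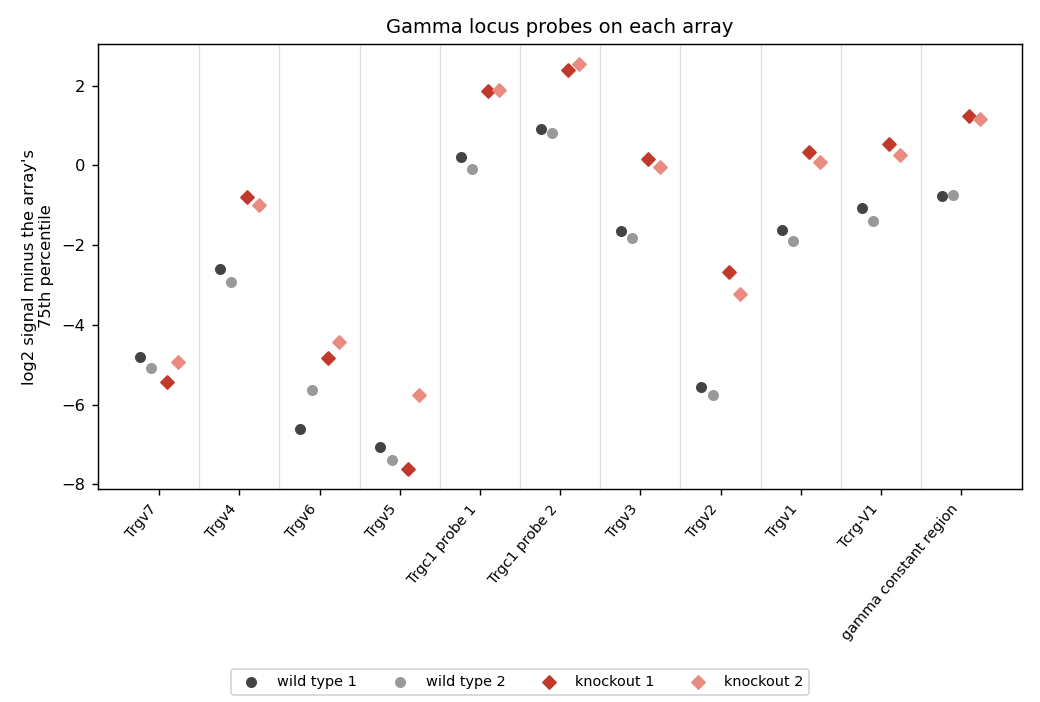
Level of each of the 11 gamma probes (vertical axis, log2 signal minus the array's 75th percentile) on the 4 arrays, in order of position (horizontal axis). The knockout diamonds lie above the wild-type circles for 9 probes, and Trgv7 and Trgv5 do not separate. Levels are comparable within a probe, not between probes.

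The other genes measured inside the gamma region had differences near 0. Stard3nl, which ends the region, had levels of 1.46 and 1.41 in wild type and 1.27 and 1.39 in the knockout, a difference of -0.11. Amph, at the start of the region, had levels of -4.48 and -5.35 in wild type and -4.43 and -5.10 in the knockout, a difference of 0.15 with overlapping groups. The nearest probes outside lay farther off: Vps41, 211.6 kb before the region, differed by -0.14, and 9330199G10Rik, 97.6 kb after it, by 0.47, with both knockout arrays above both wild-type arrays. The first gamma probe inside, Trgv7, lay 100.1 kb from its border and the last, the constant-region probe, 15.8 kb from its own.

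The delta segments lie at the far end of the alpha and delta region, and those that were measured were higher on both knockout arrays. Trdv5 (minus strand) had levels of -4.86 and -4.85 in wild type and -3.38 and -3.76 in the knockout, a difference of 1.29 (SE 0.18). Trdv2-2 had levels of -4.53 and -4.92 in wild type and -3.77 and -4.03 in the knockout, a difference of 0.83. Trdv1 had levels of -3.12 and -3.05 in wild type and -2.50 and -2.30 in the knockout, a difference of 0.68. After normexp background correction Trdv5 differed by 0.60 and Trdv2-2 by 0.44. In none of the 3 did the genotypes overlap. Trdv4, known from gamma-delta cells of skin and mucosa, was well above background on no array.

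No probe carries the name of the delta constant region. In RefSeq's gene order Trdc follows Trdv4, the diversity segments Trdd1 and Trdd2 and the joining segments Trdj1 and Trdj2, and precedes Trdv5. A probe of the clone A630038E17Rik, whose description names an immunoglobulin C-type-like domain, lies between the Trdv4 and Trdv5 probes at chr14:54762764-54763464. It is outside the rule, and its level was -1.82 and -1.73 in wild type and 0.15 and 0.01 in the knockout, a difference of 1.86 (SE 0.14). Another probe under that name, 55.6 kb before it, was well above background on no array. Whether the brighter probe reads Trdc could not be settled without an annotation of the build.

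The variable segments named for both chains, which can be joined into an alpha or a delta chain, divided by family. The 4 probes of the Trav15 family, known from delta chains that pair with Trgv1 in innate-like gamma-delta cells, were higher on both knockout arrays. Trav15d-2-dv6d-2 had levels of -3.81 and -4.25 in wild type and -2.90 and -3.07 in the knockout, a difference of 1.05 (SE 0.21), or 0.59 after normexp background correction. The pair of Trav15d-1-dv6d-1 probes differed by 0.76 and 0.84, and Trav15-2-dv6-2 by 0.66. Trav4-4-dv10 differed by -0.13 and Trav21-dv12 by -0.09.

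Counted together, 10 probes of this locus carry a delta name (Trdv or dv), 9 of them tested, with a median difference of 0.76 and a range from -0.13 to 1.29. The 63 tested probes with no delta name had a median of 0.02. Both knockout arrays lay above both wild-type arrays at 7 of the 9 and at 18 of the 63, where 26.2% of all tested probes did so. The count of 18 is near that share. This split was made after the values had been seen and is a description. The delta-named probes also lay nearer background, with median wild-type levels of -3.33 and -3.09 over all 10. The 68 others had -1.82 and -1.67. Among dim probes with no delta name, Trav4-2 differed by 0.75 and Trav13-3 probe 1 by 0.44, but Trav7-6 by 0.19 and Trav13-3 probe 2 by -0.01. The part of dimness in the split was not tested.

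**Figure D4:**
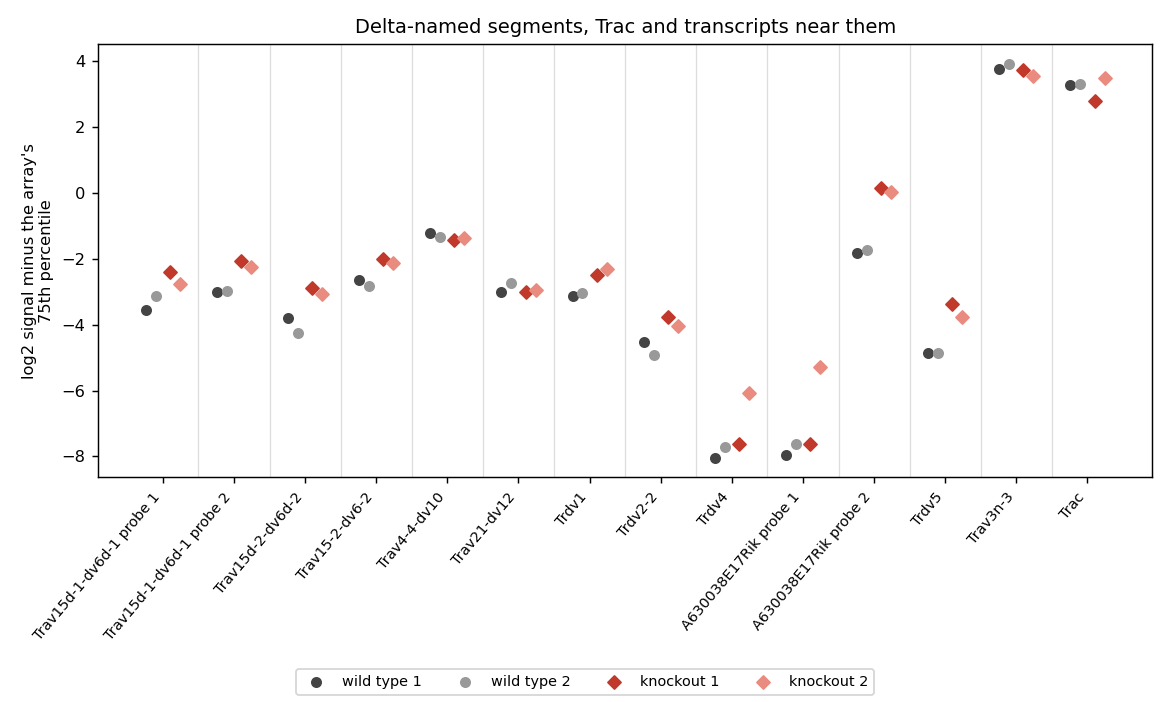
Level (vertical axis, log2 signal minus the array's 75th percentile) on the 4 arrays for probes of delta-named segments, A630038E17Rik, Trav3n-3 and Trac, in order of position (horizontal axis). Diamonds (knockout) lie above circles (wild type) at the 3 measured Trdv probes, the 4 Trav15 probes and A630038E17Rik probe 2, and not at Trav4-4-dv10, Trav21-dv12, Trav3n-3 or Trac.

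Alpha variable segments with no delta name had differences on both sides of 0. Of their 60 tested probes, 54 lay within 0.5 of 0, and 33 were positive and 27 negative, a balance that moves with the scaling: after the shift by the median it was 15 to 45. The largest upward difference was at Trav11d, known from the invariant alpha chain family of natural killer T cells, with levels of -1.36 and -2.61 in wild type and -0.42 and -1.34 in the knockout, a difference of 1.11 (SE 0.55). Its wild-type arrays lay 1.25 apart and the genotypes were 0.03 apart at the closest. The difference was 0.48 without wild-type replicate 2, 0.65 without knockout replicate 1 and 1.74 without wild-type replicate 1. The transcript number of the Trav11d probe falls between those of Trav6d-6 and Trav7d-5, whose probes start at chr14:53441793 and chr14:53455536. The Trav11d probe itself is placed at chr14:54139419, so it is not certain which copy of the segment it reads. Trav13-2, among the brighter probes, differed by 0.28.

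The alpha segments with the largest downward differences were uneven between arrays. Trav12d-2 had levels of 0.04 and -0.08 in wild type and -2.52 and -0.20 in the knockout, so that the difference of -1.34 (SE 0.81) came from knockout replicate 1, and it was -0.18 without that array. This probe lies in a corner block, as do Trav12d-1 (-0.41, and 0.13 without knockout replicate 1) and Trav7d-5 probe 1. The latter had levels of -2.01 and -0.15 in wild type and -2.58 and -0.15 in the knockout, so that its difference of -0.29 was 0.65 without wild-type replicate 2 and 0.93 without knockout replicate 1. Trav7-4 had levels of -1.83 and -1.39 in wild type and -2.83 and -1.63 in the knockout, a difference of -0.62 that was -0.02 without knockout replicate 1. AY056585 probe 1 completed the lowest 5 with -0.28.

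By family, the medians of the alpha segments stayed close to 0. Over tested probes the median difference was -0.18 for the 7 Trav6 probes, 0.02 for 8 of Trav7, -0.05 for 4 of Trav9, -0.01 for 6 of Trav12, -0.02 for 3 of Trav14 and -0.01 for 5 of Trav4. The Trav13 family stood higher, at 0.35 over 8 probes, and the Trav15 family at 0.80 over 4. Trav4-2 departed from its family with levels of -4.77 and -4.98 in wild type and -4.10 and -4.14 in the knockout, a difference of 0.75. Probes of the same family may bind each other's RNA, as the shared runs show, so a family median counts related measurements.

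Along the locus, the median difference was highest in the window that holds the Trdv probes. In windows of 500 kb from the start of the region, the median differences were 0.02 (22 tested probes), -0.01 (21), 0.11 (24) and, in the last, shorter window, 0.68 (5). The last window holds the Trdv probes, described above, together with Trav3n-3 and Trac, and its median is the value of Trdv1. Trac, at -0.14, and Trav3n-3 were not higher, and Trav21-dv12, just before this window, differed by -0.09. The windows thus repeat the Trdv values and do not separate position from kind of segment. The bright clone that RefSeq names Trav3n-3 is placed 21.2 kb before Trac, and had levels of 3.75 and 3.92 in wild type and 3.73 and 3.55 in the knockout, a difference of -0.20. Its name and its position may refer to different parts of a rearranged transcript, so it is not certain which segment it reads. Of the other bright alpha probes, Trav2 differed by -0.05 and the Trav9d-3 pair by 0.03 and -0.16. Trav1, the first probe of the region, differed by 0.65. The nearest probes outside the region, Olfr1512 and Olfr49, were well above background on no array.

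Differences in the beta locus were small. Of its 25 tested probes, 22 lay within 0.5 of 0, 20 were positive and 5 negative, and 14 and 11 after the shift by the median. Trbv3, a bright segment, had levels of 2.93 and 2.89 in wild type and 3.47 and 3.44 in the knockout, a difference of 0.54. Trbv29 had levels of 0.22 and -0.20 in wild type and 0.63 and 0.78 in the knockout, a difference of 0.69, the largest of the locus. With the Trbv13 segments, Trbv29 and Trbv1 are known from the beta chains of natural killer T cells. Trbv1 differed by 0.52, Trbv21, whose probe shares bases with that of Trbv29, by 0.43, and Trbv17 by 0.39, each with both knockout arrays above both wild-type arrays.

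Lower beta values were few and small. Trbv19 had levels of 1.20 and 1.28 in wild type and 0.79 and 1.16 in the knockout, a difference of -0.27, and was the 1 beta probe with both knockout arrays below. Trbv14 differed by -0.13, Trbv30 by -0.12, the clone GU599378 by -0.03 and Trbv31 (minus strand, beyond the constant regions) by -0.03, all with overlapping groups. Among the remaining bright probes, Trbv5 probe 2 differed by 0.00 and Trbv13-2 probe 2 by 0.17. Trbv26 was above background on no array. Of the named beta probes, 7 of 14 kept their sign in every setting, and 10 of 16 in the alpha and delta locus did. Ephb6, 34.7 kb past the end of the region, differed by 0.21.

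Pairs of probes under 1 segment name give a rough measure of the error between probes. Of 11 names with a tested pair, the differences of the pair lay 0.12 apart at the median and 0.45 apart at the most, at Trav13-3. The Trav13-3 probes lie far apart, at chr14:53653142 and chr14:53957190, and may read different copies of the segment. Their gap may thus not be an error within 1 segment, and the Trbv5 pair shares 51 bases. Differences beyond the Trav13-3 gap were found at 9 of 10 gamma, 13 of 72 alpha and delta and 3 of 25 beta probes. The share of all tested probes beyond it was 19.8%. Immunoglobulin segments, which B cells assemble in the same way, are given beside them, but were mostly too dim to test. Of 119 probes 40 were tested and 63 were above background on no array. Over the tested ones the median difference was 0.19, with a range from -1.52 to 1.78. A difference of at least 1 was seen upwards at 3 and downwards at 4, where 2.14% and 1.72% of all tested probes had one. Of those 40, 4 were higher and 2 lower at an unadjusted limma p under 0.05, where 6.8% and 3.32% of all were.

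The genes that act with the receptor loci were read from lists of genes, each by its brightest probe, and some genes stand in more than 1 list. At the unadjusted limma p, 6.65% of all names were higher and 3.27% lower, and 0 genes of any list had an adjusted p under 0.05. The CD3 chains, which carry the receptor of either kind to the surface, had differences close to 0. Cd3e differed by -0.06, Cd3d (in a corner block) by -0.01 and Cd3g by 0.05. Cd247, the zeta chain, differed by 0.26, and by -0.21 at its other tested probe. Cd4, used in the sort, differed by -0.16, and by 0.04 at its other tested probe. Cd8a had levels of -3.89 and -3.73 in wild type and -2.64 and -2.37 in the knockout, a difference of 1.30, the 1 of 7 tested genes of this list with an unadjusted p under 0.05, while its partner Cd8b1 differed by -0.13. Ptcra, the pre-T alpha chain of thymocytes, whose probe lies in a corner block, was above background on no array.

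Rag1 and Rag2, the recombinase that cuts receptor segments in developing lymphocytes, were above background on no array. Dntt, the polymerase that adds bases at the joins, had levels of 3.93 and 4.54 in wild type and 4.06 and 4.22 in the knockout, a difference of -0.09. None of the 10 tested genes had an unadjusted limma p under 0.05, and their median difference was -0.09 where that of all names was 0.03. Xrcc6, which binds DNA ends, differed by -2.18, and this came from knockout replicate 1, at 0.33 where the other arrays were at 4.06 to 4.40, in a corner block. The other members ranged from -0.23 (Xrcc4) to 0.35 (Hmgb2).

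Of 18 tested regulators of the loci, 2 were higher and 2 lower at an unadjusted limma p under 0.05, with a median difference of 0.00. Il7r, whose signal opens the gamma locus to recombination in precursors, had levels of 5.02 and 5.03 in wild type and 5.51 and 5.53 in the knockout, a difference of 0.49. Gata3, a factor of T cell commitment and type 2 cells, had levels of 4.62 and 3.66 in wild type and 5.65 and 5.12 in the knockout, a difference of 1.25. Tcf7 and Lef1, paired factors of early T cells that bind receptor enhancers, differed by -0.66 and -0.50. Stat5a and Stat5b, which carry the IL-7 signal, differed by 0.24 and 0.04, Runx1 and Runx3 by -0.33 and -0.26, and Sox13 by -0.08.

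Marker lists of other cells that the sort could hold were read beside the gamma and delta probes. Of 9 tested genes marking gamma-delta T cells, 2 were higher at an unadjusted limma p under 0.05, Cd163l1 by 1.13 and Zbtb16 by 1.45, and 2 lower, among them Cd27 by -0.49. The list's other 3, Trdc, Trgc1 and Trgc2, are receptor genes that no probe carries as its gene name. The summed level of a list is the log2 of its genes' summed signals, which the bright genes dominate in every list. For the gamma-delta list it was 5.64 and 5.57 in wild type and 5.67 and 5.45 in the knockout. Cd163l1, a surface protein of IL-17-producing gamma-delta cells, had levels of -4.06 and -3.25 in wild type and -2.81 and -2.25 in the knockout. Zbtb16, the factor of innate-like T cells, had levels of -0.49 and -1.50 in wild type and 0.74 and 0.17 in the knockout. Blk, a kinase of such cells, differed by 0.73, Etv5 by 0.31 and 5830411N06Rik by 0.23. Maf differed by 0.13, with its other tested probe at -0.19, and Sox13 by -0.08. None of these had an unadjusted limma p under 0.05 at its brightest probe. Over the 9 tested genes, 6 differences were positive and 3 negative.

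**Figure D5:**
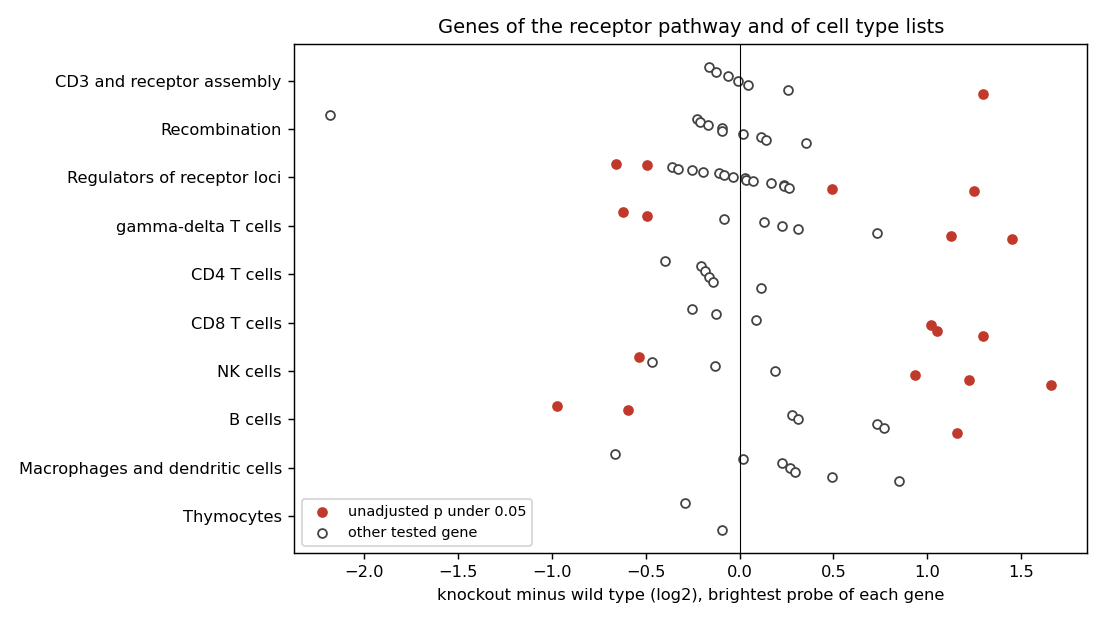
Knockout minus wild-type difference (horizontal axis, log2) of the tested genes of each list (vertical axis), by the brightest probe of each gene, filled where the unadjusted limma p was under 0.05. Filled points stand on both sides of 0 in 4 lists, and none had an adjusted p under 0.05.

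Of 6 CD8 T cell markers, Cd8a, Nkg7 (1.02) and Eomes (1.05) were higher at an unadjusted limma p under 0.05. The others, Cd8b1 (-0.13), Runx3 (-0.26) and Crtam (0.09), were not. The summed level was 3.74 and 3.86 in wild type and 4.25 and 4.43 in the knockout. Nkg7, the brightest gene of the list, stood at 2.67 and 2.82 in wild type and 3.65 and 3.88 in the knockout. Of 7 tested NK cell markers, Klra8, Gzma and Fcer1g were higher, by 1.66, 1.22 and 0.94, and Klre1 lower, by -0.54. Over the 7, 4 differences were positive and 3 negative, with Klrd1 at -0.47 and Klrk1 at -0.13. The summed level of the NK cell list was 7.86 and 7.03 in wild type and 8.52 and 8.55 in the knockout. Gzma alone makes up most of it, at 7.73 and 6.75 in wild type and 8.46 and 8.47 in the knockout. Ncr1, which defines NK cells, was above background on no array.

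Of 7 tested B cell markers, 1 was higher (Cd79b by 1.16) and 2 were lower (Ebf1 by -0.97 and Cd22 by -0.60). The Cd79b and Cd22 probes lie in a corner block, and on knockout replicates 1 and 2 stood at 1.62 and 1.82 for Cd79b and at -0.66 and -0.41 for Cd22. The summed level of the B cell list was 2.06 and 1.63 in wild type and 2.23 and 2.34 in the knockout. None of 7 macrophage and dendritic cell markers, none of 6 CD4 T cell markers and none of 2 tested thymocyte markers had an unadjusted limma p under 0.05. The summed level was 4.15 to 4.28 for the macrophage and dendritic cell list, 8.02 to 8.27 for the CD4 list and 4.12 to 4.66 for the thymocyte list over the 4 arrays. The part that any other cell type has in the gamma and delta values was not tested, and in these bulk samples more cells of a type and more RNA per cell cannot be told apart.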

How the data were processed

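Per the submitters' processing notes the arrays were read with Agilent Feature Extraction 10.5.1.1. The deposited scanner tables give the processed and background-subtracted signal of each spot, a linear intensity per the file headers, and a multiplicative detrending surface, a ratio that per the file headers and values was applied to 0.801% of the bright spots of knockout array 1 and to 100% on the others. The deposited matrix of log2 values, used as an alternative, differed from the log2 processed signal by 1 constant per array (within 0.001 for 100% of probes), and its columns all had a median of 5.54.

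Control and outlier spots were left out and spots of a probe averaged (pandas 2.3.3, Python 3.11.15), and the 75th percentile of each array was subtracted. Probes that passed the background filter, with a value on all 4 arrays, were fitted with limma 3.58.1 (R 4.3.3; 2 residual and 2.19 prior degrees of freedom) and adjusted by Benjamini-Hochberg, at a threshold of 0.05. The code was tested on simulated data. For a probe above background in 1 genotype only, the fold given compares its mean there with the mean of the other arrays. Each of those was raised to that array's lowest signal above background if below it. Dim values above that lowest signal were left as measured, so the fold is not a lower bound.

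Members and gene lists were chosen with earlier results of these data known. Named were all constant regions, all measured gamma probes, in each other locus the 6 brightest probes and the 5 most different each way, the list genes and the probes at the borders; some list genes are not reported here. Probes beyond this rule were picked after their values were seen. Alternatives were other normalizations, background correction, filters, the correction of knockout array 1, the corner blocks, the replicate block and leaving out each array. Deviations of same-numbered arrays correlated at -0.004, so the numbers do not pair the samples.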

Additional observations from a re-analysis of the deposited data

How the results depend on the processing

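Over 13 alternatives the median difference was 1.44 to 1.90 for gamma, -0.13 to 0.11 for alpha and delta and 0.01 to 0.23 for beta. Shifting arrays by their median, which the deposited matrix also does, moved the median of all tested probes from 0.04 to -0.12, and gave 1.65 for gamma, -0.13 for alpha and delta and 0.0085 for beta, an equal shift of each locus. Normexp background correction gave 1.44 for gamma. The number of probes with an adjusted limma p under 0.05 was 0 in every setting but 1, and 0 to 53 on leaving out 1 array, with the 53 found without wild-type replicate 1. Leaving out 1 array gave 1.71 to 1.90 for the gamma median, -0.005 to 0.11 for alpha and delta and 0.061 to 0.23 for beta. The alternatives for member counts were added after seeing the data. At an unadjusted p under 0.05, leaving out 1 array gave 8 to 9 gamma, 7 to 10 alpha and delta and 1 to 2 beta probes higher, against 9, 11 and 4 with all. The count for beta was 1 after the median shift or with the deposited matrix, and 2 with the replicate block, where the numbers do not pair the samples. With the replicate block the gamma median was 1.81 and its count 9. Of the 73 list genes tested, 18 had an unadjusted limma p under 0.05, where 6.65% of all names were higher and 3.27% lower. The count was 27 after normexp background correction and 22 after the median shift or with the deposited matrix. For these settings no share of all names was worked out. The lists were chosen with earlier results known, so the counts are a description. Of the 40 named probes, 26 kept their sign throughout, 9 of 10 in gamma. With 2 arrays a genotype, the smallest exact two-sided permutation p for a single value is 0.333, so no such test was made. Signals near background limit, among others, Trgv2, Trgv6, Trgv7, Trdv5, Trdv2-2, Trav4-2 and Trav15d-2-dv6d-2.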
